A study of Mus musculus with 8 samples.

Results

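Folate one-carbon metabolism was examined through 8 enzyme genes, taken by symbol from the first column of every deposited table: Aldh1l1, Aldh1l2, Mthfd1, Mthfd1l, Mthfd2, Mthfd2l, Mtr and Fpgs. All 8 were found among the 24060 rows, and all 8 passed the filter on low values which 15605 genes passed in all. The material was cortex from 4 young adult mice of about postnatal day 80, of both sexes, with the sex of each animal not given. Every animal had the genotype Aldh1l1-creERT2 hemi and Ribotag het, so both groups share the transgene and the allele, and no animal without them enters any comparison here. Aldh1l1-creERT2 is a Cre recombinase active only with a ligand such as tamoxifen and driven by Aldh1l1 sequence, and Ribotag lets Cre place a hemagglutinin (HA) tag on the ribosomal protein of the recombined cells. The HA IP group holds 4 libraries of RNA bound to the precipitated tagged ribosomes, and the input group holds 4 libraries of the cleared lysate of the same cortices. Libraries are named by animal: 579, 580, 581 and 595.

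Folate cofactors carry single carbon units between serine, glycine, formate, purines, thymidylate and methionine, and parallel sets of enzymes do this in the cytosol and in mitochondria. In the cytosol Mthfd1 interconverts the carbon units in both directions and Aldh1l1 removes formyl units as carbon dioxide, while Aldh1l2, Mthfd1l, Mthfd2 and Mthfd2l are their mitochondrial counterparts. Mtr, methionine synthase, passes the methyl group of folate to homocysteine with the help of cobalamin, and Fpgs adds the glutamate chain that holds folate inside cells. In the brain Aldh1l1 is widely used as an astrocyte marker, whereas Mthfd2 is best known from proliferating cells.

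The start regions of 4 members are shown because their ratios of HA IP to input were the 2 highest (Aldh1l1 and Mthfd1) and the 2 lowest (Mthfd1l and Mtr) of the 8. Each sequence is the 250 bases before a start site that, for all 4, lies inside the full annotated span of the gene, on the strand of the gene, from RefSeq on build GRCm38.p6, the assembly also called mm10. The windows lie at chr6:90550543-90550792 (plus strand) for Aldh1l1, chr12:76254982-76255231 (plus) for Mthfd1, chr10:3972825-3973074 (plus) for Mthfd1l and chr13:12258114-12258363 (minus) for Mtr. Capitals mark matches on either strand to the letters CCAAT (the CCAAT box) and GGGCGG (the GC box).
Aldh1l1: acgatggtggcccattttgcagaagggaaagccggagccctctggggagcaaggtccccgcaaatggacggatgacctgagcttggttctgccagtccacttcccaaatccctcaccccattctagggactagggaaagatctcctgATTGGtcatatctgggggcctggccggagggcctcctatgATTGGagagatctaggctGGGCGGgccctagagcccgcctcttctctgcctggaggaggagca
Mthfd1: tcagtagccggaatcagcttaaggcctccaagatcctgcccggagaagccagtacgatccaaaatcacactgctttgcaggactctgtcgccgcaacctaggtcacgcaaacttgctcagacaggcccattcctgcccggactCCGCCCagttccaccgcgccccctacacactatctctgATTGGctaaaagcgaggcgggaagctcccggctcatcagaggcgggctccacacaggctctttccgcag
Mthfd1l: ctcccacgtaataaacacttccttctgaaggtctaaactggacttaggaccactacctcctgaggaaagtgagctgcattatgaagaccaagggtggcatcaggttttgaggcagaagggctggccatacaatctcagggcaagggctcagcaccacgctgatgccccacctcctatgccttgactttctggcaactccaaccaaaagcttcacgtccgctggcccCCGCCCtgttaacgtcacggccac
Mtr: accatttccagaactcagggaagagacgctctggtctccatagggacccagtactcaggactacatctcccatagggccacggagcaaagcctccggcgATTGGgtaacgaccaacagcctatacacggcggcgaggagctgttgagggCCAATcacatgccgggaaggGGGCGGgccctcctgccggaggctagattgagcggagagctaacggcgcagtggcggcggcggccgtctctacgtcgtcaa
The table of start regions held 7 of the 8 members, without Aldh1l2. CCAAT was present in 5 of these 7 windows, against 33.8% of all 32851 windows, and GGGCGG in 5 of 7, against 32.7%. The E-box letters CACGTG and the letters TGATGNAAT, a core of sites bound by ATF4, were in none of the 7 windows and in 6.02% and 0.816% of all windows. Aldh1l1 and Mtr each had 2 CCAAT matches and 1 GC box, so these letters were shared by a gene that was higher and a gene that was lower in HA IP. CG dinucleotides numbered 7 in the Aldh1l1 and Mthfd1l windows, 15 in that of Mthfd1 and 20 in that of Mtr, with a median of 6 over all windows.

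Levels are in FPKM, fragment counts divided by gene length and library size, on the scale of the deposited tables. Fold changes are log2 values of HA IP over input from limma on FPKM + 0.1, fitted over all tested genes and adjusted by Benjamini-Hochberg, with an adjusted p under 0.05 called. They follow scaling by trimmed mean of M-values (TMM), whose factors alone shift a log2 ratio by 0.84 on average and, through the pseudocount, by less in low genes, and the fold change without it is given beside each member. By this rule 83.3% of all tested genes were called, 42.1% as higher and 41.2% as lower, with a median log2 fold change of 0.01. On the deposited scale 84.9% were called, 23.3% as higher and 61.6% as lower, with a median of -0.75. All 8 members were called, 6 higher and 2 lower, and their median log2 fold change was 0.83, but 0.06 on the deposited scale. On the deposited scale 3 members were higher (Aldh1l1, Mthfd1 and Fpgs), 3 lower (Mthfd1l, Mthfd2l and Mtr) and 2 did not pass (Aldh1l2 and Mthfd2). With such a background a call by itself says little about the members, and size and direction on both scales are given for each. A call with at least a 2-fold change was reached upward by 25.6% and downward by 27.2% of tested genes, and by 4 members upward (Aldh1l1, Mthfd1, Fpgs and Mthfd2) and none downward. On the deposited scale these shares were 12.2% and 43.1%, and 2 members (Aldh1l1 and Mthfd1) passed upward and 2 (Mthfd1l and Mtr) downward. In such bulk RNA fewer cells of a type and less RNA per cell cannot be told apart. Nor can the cells a transcript came from be told apart from how much of it was bound to ribosomes.

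Libraries held 33834388 to 53625125 fragments. All 12 astrocyte markers were higher in HA IP, and together reached 18096 to 20168 FPKM in the HA IP libraries, against 1328 to 1513 FPKM in the inputs. All 12 neuron markers were lower, and together reached 187 to 216 FPKM in the HA IP libraries, against 3220 to 3410 FPKM in the inputs. Of other glial and vascular markers, 9 of 10 for oligodendrocytes, 6 of 6 for oligodendrocyte precursors, 10 of 10 for microglia and 9 of 10 for endothelium were lower. The exceptions were the oligodendrocyte marker Aspa, called higher at 0.45 but negative on the deposited scale, at -0.37, and the endothelial marker Kdr, which did not pass. Oligodendrocyte precursor markers summed to 6.55 to 9.86 FPKM in HA IP, against 36.1 to 40.1 FPKM in input. Markers of oligodendrocytes, microglia and endothelium summed to 18.4 to 21.3, 28.3 to 36.5 and 3.95 to 5.39 FPKM in HA IP, and to 183 to 261, 206 to 217 and 25.3 to 35.7 FPKM in input. Mural cell and fibroblast markers were less uniformly reduced, with 1 of 8 higher, 3 lower and 4 not passed in each list. The higher ones were Pdgfrb at 2.37 and Col1a2 at 1.36, while the mural markers Rgs5 and Kcnj8 had -2.52 and -2.37. The sums of the mural cell and fibroblast lists were 16.4 to 48.3 and 13.7 to 44.1 FPKM in HA IP, highest in animal 595, against 44.5 to 54.2 and 56.2 to 80.3 FPKM in input. Vtn alone, which did not pass, gave 38.8 of the 48.3 FPKM of mural cell markers in HA IP of animal 595. No marker of any of these lists was at 0 in all HA IP libraries.

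The cytosolic enzymes Aldh1l1 and Mthfd1 were much higher in HA IP on either scale. Aldh1l1 (chr6:90550768-90599171) stood at 406, 433, 415 and 370.3 FPKM in the HA IP libraries of animals 579, 580, 581 and 595, against 20.7, 21.9, 23.0 and 21.7 FPKM in their inputs. The HA IP libraries all lay far above the inputs, and the spread within either group was small, with coefficients of variation of 6.46% in HA IP and 4.24% in input. Behind these levels were 38354 to 58722 fragments per HA IP library and 2256 to 3568 per input library. HA IP exceeded input by 5.05 on the log2 scale (SE 0.08; limma, adjusted p = 1.6e-10), and 4.21 on the deposited scale. Its ratio ranked 9 from the highest of the 15605 tested genes on both scales. This ratio is not independent of the design, since the Cre that placed the HA tag was driven by Aldh1l1 sequence. By number of fragments Aldh1l1 ranked between 74 and 93 in the HA IP libraries.

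Mthfd1 (chr12:76254406-76319820), the cytosolic enzyme of several activities, had 63.2, 61.8, 60.9 and 51.9 FPKM in the HA IP libraries, against 10.2, 10.6, 11.7 and 10.1 FPKM in the inputs, in the same order of animals. The groups did not overlap, and animal 595 was lowest in both. HA IP exceeded input by 3.30 on the log2 scale (SE 0.09; limma, adjusted p = 7.0e-10), and 2.47 on the deposited scale. It ranked 485 from the highest, above 96.9% of all tested genes. In each of the 4 animals the log2 ratio of Mthfd1 lay between 3.12 and 3.49, and that of Aldh1l1 between 4.86 and 5.19.

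**Figure D1:**
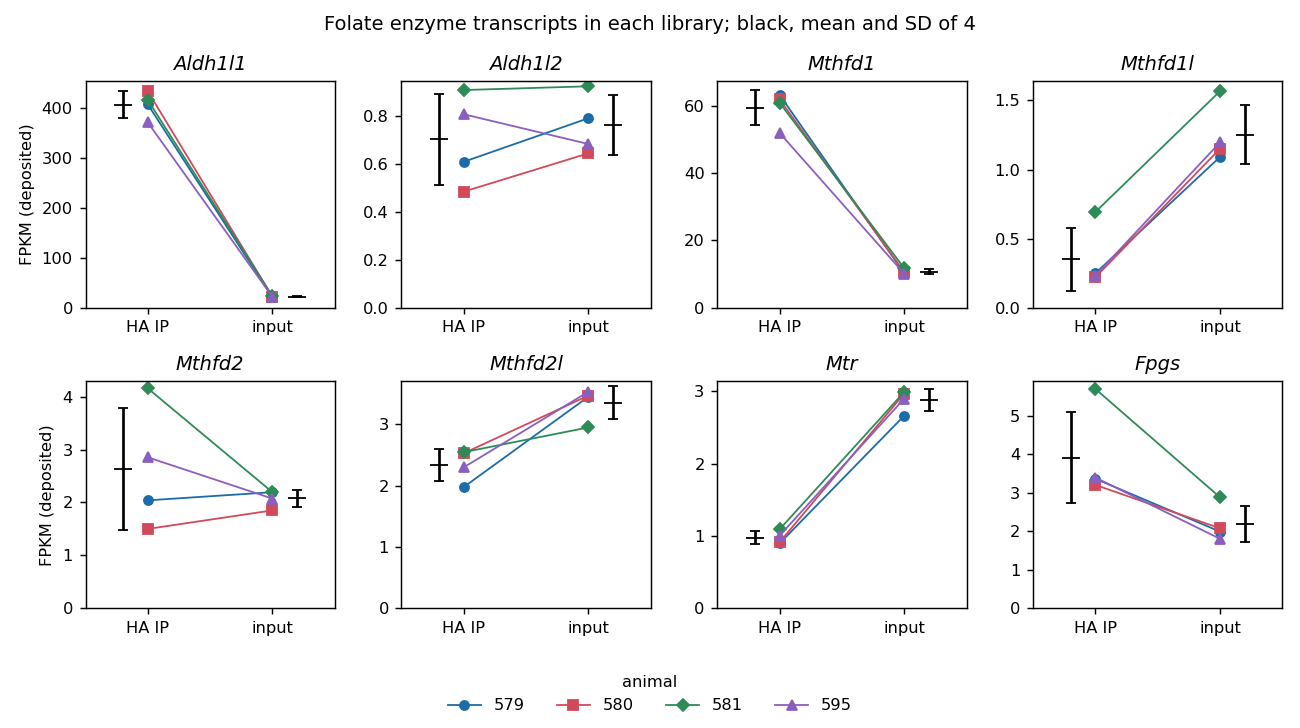
Each panel gives the deposited FPKM of 1 folate enzyme gene on a linear axis from 0, with HA IP left of input and a line joining the libraries of 1 animal; black bars are the mean and SD of 4 libraries. Aldh1l1, Mthfd1 and Fpgs lie higher in HA IP without overlap, Mthfd1l, Mthfd2l and Mtr lie lower without overlap, and Aldh1l2 and Mthfd2 overlap.

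The 4 mitochondrial members had log2 fold changes between -0.98 and 1.04, below those of Aldh1l1 and Mthfd1. Mthfd2, Aldh1l2 and Mthfd2l nevertheless lay above Mtr, which is not mitochondrial and had -0.68. Aldh1l2 (chr10:83487447-83534146), the mitochondrial formyltetrahydrofolate dehydrogenase, had 0.609, 0.484, 0.908 and 0.807 FPKM in HA IP, against 0.790, 0.644, 0.923 and 0.683 FPKM in input. The groups overlapped, with HA IP above input in 1 of the 4 animals on this scale, and 129 to 245 fragments lay behind each HA IP value. The log2 fold change was 0.61 (SE 0.19; limma, adjusted p = 0.0116). On the deposited scale the sign turned, at -0.12 (limma, adjusted p = 0.569), and without animal 595 the TMM-scaled value of 0.52 no longer passed (limma, adjusted p = 0.0653).

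Mthfd1l (chr10:3972892-4167081), which makes formate in mitochondria, fell to 0.251, 0.221, 0.693 and 0.233 FPKM in HA IP, against 1.09, 1.15, 1.57 and 1.20 FPKM in input. The deposited values did not overlap, while after TMM scaling the HA IP library of animal 581 reached into the range of the inputs. This library had 343 fragments for the gene, against 87 to 126 in the other HA IP libraries. The log2 fold change was -0.98 (SE 0.29; limma, adjusted p = 0.00951), and -1.69 on the deposited scale (limma, adjusted p = 0.000285). Without animal 595 the TMM-scaled value was -0.87 and missed the threshold (limma, adjusted p = 0.0519), and without animal 581 it was -1.20. The length implied by the deposited values was 11013 bases for Mthfd1l, which has 3 curated transcripts in RefSeq, so its FPKM is not set against that of other genes.

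Mthfd2 and Mthfd2l, the mitochondrial dehydrogenase-cyclohydrolases, ranked above 75.3% and 57.6% of all tested genes by log2 fold change. Mthfd2 (chr6:83305704-83326011) had 2.04, 1.498, 4.16 and 2.85 FPKM in HA IP, against 2.19, 1.85, 2.19 and 2.07 FPKM in input. The inputs were nearly level, with a coefficient of variation of 7.80%, whereas the HA IP libraries had one of 43.8%, lowest in animal 580 and highest in animal 581. The log2 fold change was 1.04 (SE 0.25; limma, adjusted p = 0.00303), and 0.24 on the deposited scale, where it did not pass (limma, adjusted p = 0.41). Mthfd2 was higher in HA IP in 2 of 4 animals on the deposited scale and in 4 of 4 after scaling.

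Mthfd2l (chr5:90930873-91021368) had 1.98, 2.53, 2.55 and 2.30 FPKM in HA IP, against 3.45, 3.47, 2.95 and 3.53 FPKM in input. Deposited levels were lower in HA IP in all 4 animals and the groups did not overlap. On that scale the log2 fold change was -0.51 (SE 0.12; limma, adjusted p = 0.00223), but 0.31 after TMM scaling (SE 0.12; limma, adjusted p = 0.0334). The direction of Mthfd2l therefore depended on the scaling. The positive call was also lost in 7 of the 12 fits that left out an animal or a library, with adjusted p up to 0.142 in limma, without animal 580 or 581, HA IP of 580 or 581, or input of 579, 580 or 581.

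**Figure D2:**
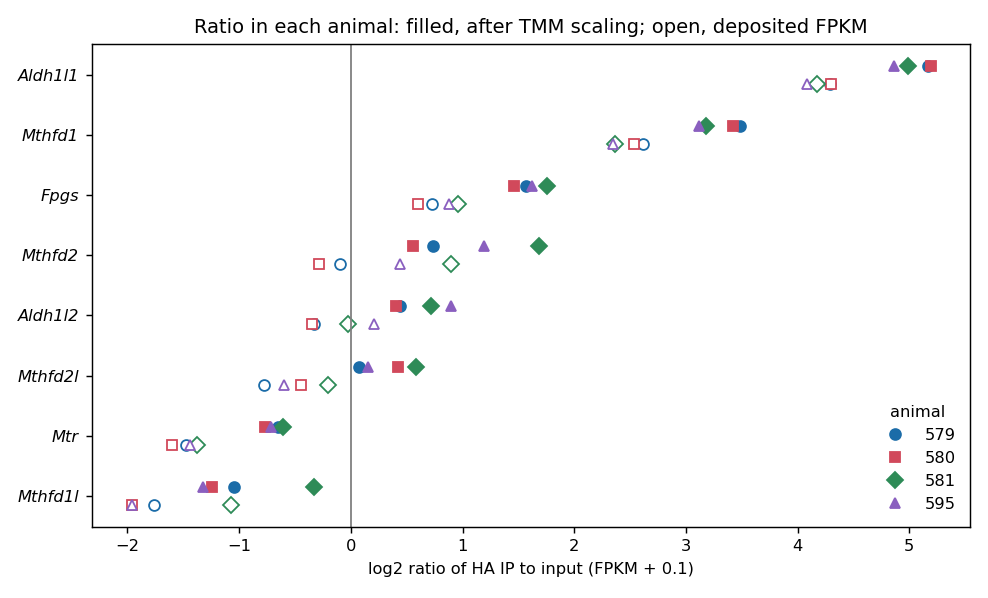
The log2 ratio of HA IP to input in each animal, by gene, with filled symbols after TMM scaling and open symbols on the deposited scale; the vertical line marks equal levels. Aldh1l1, Mthfd1 and Fpgs lie right of the line and Mtr and Mthfd1l left of it on both scales, Mthfd2l lies on different sides in the 2 scales, and Aldh1l2 and Mthfd2 straddle the line on the deposited scale.

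The cytosolic and mitochondrial paralogs were compared within each animal on the deposited scale, with the same pseudocount of 0.1 FPKM. Library scaling cancels in such a difference except through the pseudocount, which weighs most on low genes. The log2 ratio of Aldh1l1 exceeded that of Aldh1l2 by 4.62, 4.65, 4.19 and 3.87 in animals 579, 580, 581 and 595, a mean of 4.33 ± 0.37 (SD, n = 4). That of Mthfd1 exceeded that of Mthfd1l by 4.38, 4.50, 3.44 and 4.31, a mean of 4.16 ± 0.49. The size of this mean depended on the pseudocount, with 3.12 at a pseudocount of 1 and 4.45 at 0.01. Between Mthfd2 and Mthfd2l, both mitochondrial, the difference was 0.67, 0.16, 1.10 and 1.04, a mean of 0.74 ± 0.43. Each difference was positive in 4 of 4 animals, and the two-sided exact sign-flip permutation test over animals gave p = 0.125 for all 3 pairs, adjusted p = 0.125, which is the smallest p that 4 animals allow. An exact permutation of the HA IP and input labels over the 8 libraries ignores the pairing by animal. This permutation gave p = 0.0286 for the pairs of Aldh1l1 and Mthfd1, the smallest possible, and p = 0.0857 for Mthfd2 and Mthfd2l. Adjusted over the 3 pairs, the p-values of this permutation were 0.0429, 0.0429 and 0.0857.

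Fpgs, the enzyme that keeps folate in cells, rose on both scales, and Mtr, methionine synthase, fell on both. Fpgs (chr2:32682609-32704196) had 3.36, 3.20, 5.69 and 3.39 FPKM in HA IP, against 1.99, 2.07, 2.88 and 1.80 FPKM in input. Animal 581 was highest in both groups, and the groups did not overlap. HA IP exceeded input by 1.60 on the log2 scale (SE 0.20; limma, adjusted p = 3.0e-05), 0.79 on the deposited scale (limma, adjusted p = 0.0048) and 1.55 without animal 581. The annotated end of Fpgs overlaps the endothelial gene Eng by 61 bases, and Eng went the other way, with 0.117 FPKM in HA IP, against 1.16 FPKM in input.

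Mtr (chr13:12181331-12258199) had 0.895, 0.912, 1.09 and 1.003 FPKM in HA IP, against 2.66, 2.97, 2.99 and 2.90 FPKM in input. The HA IP libraries were all lower, by nearly the same ratio in each animal, with log2 ratios of -0.76 to -0.60 after scaling and -1.60 to -1.38 on the deposited scale. The log2 fold change was -0.68 (SE 0.11; limma, adjusted p = 1.96e-04), and -1.47 without scaling (limma, adjusted p = 6.7e-07). The noncoding gene Gm10336 lies within Mtr over 3772 bases and had 2.50 FPKM in HA IP, against 3.77 FPKM in input. After TMM scaling Gm10336 had 0.23 and did not pass (limma, adjusted p = 0.134). The strand setting of the counting is not known, so reads of both genes cannot be told apart there. Neither Mtr nor Mthfd1l fell as far as the neuron markers, whose median log2 fold change was -3.51 and whose values ran from -4.41 to -1.98.

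**Figure D3:**
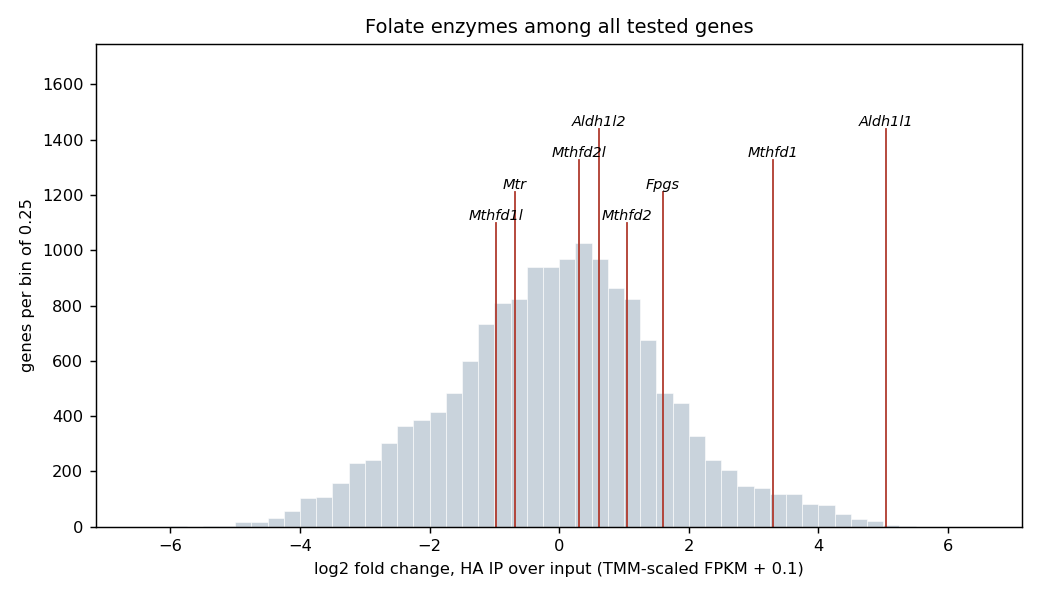
Number of tested genes by log2 fold change of HA IP over input after TMM scaling, in bins of 0.25, with red lines at the 8 folate enzymes. Aldh1l1 at 5.05 and Mthfd1 at 3.30 lie in the right tail, and the other 6 lie between -0.98 and 1.60, among them Aldh1l2 and Mthfd2l, which are negative on the deposited scale.

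Ordered by log2 fold change, the members ran from Aldh1l1 over Mthfd1, Fpgs, Mthfd2, Aldh1l2, Mthfd2l and Mtr to Mthfd1l, and the order was the same on the deposited scale. In the ratios of single animals after scaling, Aldh1l1 (4.86 to 5.19), Mthfd1 (3.12 to 3.49) and Fpgs (1.46 to 1.76) were clear of one another. Most neighbours further down shared part of their range: Fpgs with Mthfd2 (0.56 to 1.68), Mthfd2 with Aldh1l2 (0.41 to 0.90), Aldh1l2 with Mthfd2l (0.07 to 0.58), and Mtr (-0.76 to -0.60) with Mthfd1l (-1.32 to -0.33). Mthfd2l and Mtr, also neighbours in this order, did not share a range.

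Animal 581 gave the highest level of 6 of the 8 members in HA IP and of 6 of 8 in input, on the deposited scale. Over all tested genes its libraries were highest for 33.7% in HA IP and 29.4% in input. Gfap, the astrocyte intermediate filament gene, was also highest there, at 1076 FPKM in the HA IP library of animal 581, against 309.6 to 449.5 FPKM in the other HA IP libraries, and at 66.1 FPKM in its input, against 21.3 to 26.8 FPKM in the other inputs. The astrocyte markers Sox9 and Fgfr3 were likewise highest in animal 581 in both groups. Aldoc, Glul, Slc1a2, Slc1a3, Gja1 and Gjb6 were instead lowest there in both groups. The sum of the astrocyte markers, of which Aldoc and Glul were the largest parts, was also lowest in animal 581. It was 18096 FPKM in its HA IP library and 1328 FPKM in its input. The part of any of these in the levels of the members was not tested.

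Genes whose pattern over the 8 libraries was most like that of a member were found by the root mean square difference of centred log2 values, among 11611 compared genes. Among the nearest to Aldh1l1 were Pbxip1 (0.085), Acsbg1 (0.090), Pygm (0.103) and Aldoc (0.118), with log2 fold changes of 4.93 to 5.11. Similar fold changes follow from the way neighbours were picked and are no separate result. Acsbg1 activates long-chain fatty acids, Pygm is a glycogen phosphorylase and Aldoc the brain aldolase. Nearest to Mthfd1 were Lrp10 (0.063) and Nacc2 (0.066), to Mtr Ate1 (0.064) and Usp15 (0.064), and to Mthfd1l Ccrn4l (0.096) and N4bp3 (0.136). Mthfd2l was nearest to Mob4 (0.039) and Anxa7 (0.051), Aldh1l2 to Nab1 (0.082) and Tmem123 (0.098), Fpgs to Rasa3 (0.126) and Ddx21 (0.127), and Mthfd2 to Sema5b (0.161) and Iffo2 (0.172).

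The genes around these enzymes were counted in 7 lists of 68 genes, of which 67 were in the tables and 62 were tested. Of the 62, 47 were higher, 9 lower and 6 did not pass, with a median log2 fold change of 1.49, against 0.01 over all genes. Over all tested genes 42.1% were higher and 41.2% lower. On the deposited scale 39 of the related genes were higher and 16 lower, with a median of 0.75, against -0.75 over all genes. The shares over all genes were then 23.3% higher and 61.6% lower. The same shares stand against the counts of each list below. Because the lists were chosen with earlier results of these data known, their counts and medians are no independent result. In the list of folate uptake and release, 2 of 5 tested genes rose and 2 fell. The proton-coupled folate transporter gene Slc46a1 rose by 2.02 and Ggh, which trims the glutamate chain that Fpgs builds, by 2.50. The folate receptor gene Folr2 and the mitochondrial folate carrier gene Slc25a32 had -1.77 and -0.72. Mean levels of Folr2 were low, at 0.106 FPKM in HA IP, against 0.903 FPKM in input. A gene near 0 in HA IP can pass the filter through the 4 inputs alone, and is then unlikely to be called higher. The fall of Folr2, and those of other genes near 0 in HA IP, may rest on this and carry little weight.

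Of 13 tested genes that interconvert the carbon units, 9 rose, 2 fell and 2 did not pass. The largest rises were those of Gldc, of the glycine cleavage system, at 4.40 (SE 0.15), Sardh, the sarcosine dehydrogenase, at 4.16 (SE 0.12), and Shmt2, the mitochondrial serine hydroxymethyltransferase, at 2.82 (SE 0.09). Shmt2 averaged 12.4 ± 0.507 FPKM over the HA IP libraries, against 3.05 ± 0.347 FPKM over the inputs (SD, n = 4 each). Its cytosolic paralog Shmt1 had 0.27 and did not pass (limma, adjusted p = 0.143), and on the deposited scale it was called lower, at -0.50. Dmgdh, dimethylglycine dehydrogenase and one of those that fell, had -1.54 at mean levels of 0.0344 FPKM in HA IP, against 0.433 FPKM in input. Like Folr2, Dmgdh may have been tested through the inputs alone. The serine synthesis genes Phgdh, Psat1 and Psph rose by 5.21, 3.72 and 3.50.

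Around Mtr the methionine genes divided. Of 10 tested genes of the methionine cycle and transsulfuration, 6 rose, 2 fell and 2 did not pass, and on the deposited scale 3 rose and 5 fell. Cbs and Cth, which draw homocysteine off toward cysteine, rose by 4.69 (SE 0.13) and 4.11 (SE 0.19), and Ahcyl1, a homologue of the enzyme that releases homocysteine, by 2.76 (SE 0.10). The gene of that enzyme itself, Ahcy, rose by 1.01 (SE 0.13), and had 0.20 on the deposited scale, where it did not pass. Cbs averaged 45.2 ± 7.42 FPKM over the HA IP libraries, against 3.001 ± 0.393 FPKM over the inputs. Mtrr, the reductase that reactivates Mtr, had -0.08 and did not pass, and had -0.89 on the deposited scale, where it was called lower. Mat2b, a subunit of the enzyme that makes S-adenosylmethionine, and Bhmt2, a methyltransferase of methionine synthesis, had -0.94 and -0.90, and mean levels of Bhmt2 were 0.0214 FPKM in HA IP, against 0.182 FPKM in input. Bhmt2 too may have been tested through the inputs alone.

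All 9 genes listed for cobalamin supply rose, and 7 of 9 did so on the deposited scale. Among them were the lysosomal cobalamin transporter gene Abcd4 at 3.35 (SE 0.11) and the carrier gene Tcn2 at 3.26 (SE 0.13). Mut, methylmalonyl-CoA mutase, was in this list although it uses cobalamin rather than supplying it, and had 2.70 (SE 0.21). Of 6 purine synthesis genes 5 rose, including Gart and Atic, which use formyl folate, at 2.12 and 2.76, and Paics at 2.71. Among 16 other aldehyde dehydrogenase genes, 13 rose and 3 fell around a median log2 fold change of 2.59. Without TMM scaling 11 rose and 3 fell. Aldh2, the mitochondrial acetaldehyde enzyme, rose by 4.41 (SE 0.10), Aldh7a1 by 3.95 (SE 0.11) and Aldh1a1 by 3.70 (SE 0.20), whereas Aldh1a3 and Aldh3a1 had -1.73 and -1.39 at input levels of 0.486 and 0.322 FPKM. Both Aldh1a3 and Aldh3a1 were near 0 in HA IP and may have been tested through the inputs alone. Aldh1l1 was above all 16 other aldehyde dehydrogenase genes, and Aldh1l2 above the 3 that fell and below the 13 that rose.

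**Figure D4:**
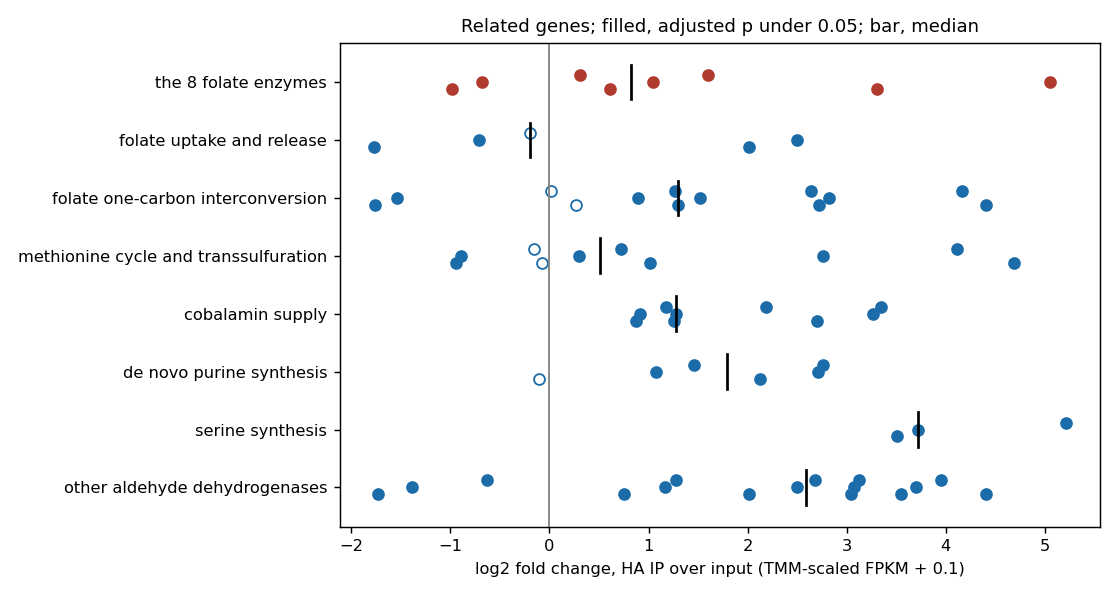
Log2 fold changes of HA IP over input after TMM scaling for the 8 folate enzymes and for the tested genes of 7 related lists, with filled points for an adjusted p under 0.05 and bars at list medians. List medians run from -0.19 for folate uptake and release to 3.72 for serine synthesis, and lie lower on the deposited scale, where that of the methionine cycle list turns negative.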

How the data were processed

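Polyadenylated RNA of 4 cortices was sequenced as an HA IP and an input library per animal. Per the labels' protocols, libraries were paired-end and stranded, from 100 ng of RNA with mRNA selection. Per the submitters' processing notes, bcl2fastq 2.17, STAR, HTSeq and build mm10 were used; the gene annotation, whether counting used strand, and which STAR or HTSeq version was run were not given in the sources used here. The deposited values carry no stated unit and were read as FPKM computed by the authors, because a single whole-number length for each gene and a single whole-number depth for each library turned all 142235 nonzero values into whole fragments, to within 0.001. Depths were 33834388 to 53625125 fragments.

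Genes were tested with at least 0.246 CPM (10 fragments in a library of median size) in 4 libraries and 15 fragments in all. These 4 libraries could be of either group, so a gene could pass through 1 group alone. limma 3.58.1 in R 4.3.3 with an intensity trend was fitted to log2(FPKM over TMM factor + 0.1) without the animal as a block. TMM factors (0.3 of M-values and 0.05 of A-values trimmed, no weights) were computed with purpose-written code. A pseudocount of 0.1 FPKM understates fold changes of low genes. The code was tested on simulated data. Animal numbers pair the libraries, since each animal gave both; deviations from group means correlated at 0.22 to 0.40 within animals and at most 0.11 between them. On the fragments, limma-voom was an alternative and called 6582 genes higher and 6468 lower. The members and lists were chosen with earlier results of these data known. Shmt1, Mtrr, Ahcy, Aspa, Kdr, Vtn, Eng and Gm10336 were named after their values were seen. So were Fgfr3, Glul, Slc1a2, Slc1a3, Gja1 and Gjb6. The named neighbours are 5 for Aldh1l1 and 2 for each other member, at a mean of at least 1 FPKM. Otherwise named list genes are the 3 largest rises and 2 largest falls called in each list. Some genes that this rule names are not reported here. Mthfsl was not analysed here. Alternatives covered scaling, pseudocount, filter, trend, limma-voom, the replicate block and leaving out libraries.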

Additional observations from a re-analysis of the deposited data

Results flagged for a closer look

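Among 16 groups of 4 libraries (8 genes in HA IP and in input), 3 had a library far from the others, each of animal 581; chance alone flags about 1 in 20 such groups. They were Mthfd1l in HA IP, at 0.693 FPKM against 0.221 to 0.251 FPKM in the other HA IP libraries, Fpgs in HA IP, at 5.69 FPKM against 3.20 to 3.39 FPKM, and Mthfd2l in input, at 2.95 FPKM against 3.45 to 3.53 FPKM. The Mthfd2l value was low, while those of Mthfd1l and Fpgs were high. The same animal's inputs were also the highest of their group for Mthfd1l, at 1.57 FPKM, and Fpgs, at 2.88 FPKM.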

How the results depend on the processing

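Aldh1l1, Mthfd1, Fpgs and Mtr kept their direction and call under all 22 alternatives, with log2 fold changes of 4.21 to 5.11, 2.47 to 3.38, 0.79 to 1.73 and -1.47 to -0.45. Without TMM scaling 3 members were called higher, with or without the animal block, and over all genes 3643 were higher, or 3791 higher and 9794 lower with the block; Aldh1l2 reversed to -0.12, Mthfd2l to -0.51, and Mthfd2 at 0.24 no longer passed, in both fits. That alternative with the block was added after seeing the data. The replicate block alone, with pairing by animal, gave 6 members higher and 2 lower, 6717 genes higher and 6596 lower, and changed no call of a member. Median-of-ratios scaling left Mthfd2l at 0.22, not passed. Leaving out an animal or a library gave 1 to 2 members lower and 5 to 6 higher, with ranges of 0.50 to 0.75 for Aldh1l2, -1.30 to -0.86 for Mthfd1l, 0.80 to 1.26 for Mthfd2 and 0.21 to 0.39 for Mthfd2l; the cause of lost calls was not tested. With a pseudocount of 1 Mthfd1l had -0.42, Mtr -0.45 and Aldh1l2 0.30, all still passed. Genes lower in the related lists numbered 4 with a filter of 1 FPKM, where fewer genes were tested and Aldh1l2 gave no value, and 16 without scaling in both fits. Without the replicate block, the paralog differences of 4.33 and 4.16 passed at adjusted p = 0.0429 (exact permutation over libraries). That permutation ignores the pairing by animal, and the paired sign-flip permutation test gave adjusted p = 0.125. Counts of 87 to 126 fragments, as for Mthfd1l in 3 HA IP libraries, limit the precision of low genes.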
